A study of Mus musculus with 419 samples.

Results

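Tbx3-high and Tbx3-low embryonic stem cells were compared within a single population of 419 cells. The groups were chosen by the Tbx3 values themselves: all transcript rows of the gene were summed over the 129 and CAST allele tables and expressed as parts per 1000000 of the cell's total (ppm). The 105 cells of the highest quartile were called Tbx3-high and the 105 cells of the lowest quartile Tbx3-low, which left 209 cells between them. Cells without any Tbx3 would have been the preferred comparator, but only 34 cells had a sum of 0, fewer than the 80 set as the minimum. The low group was therefore not Tbx3-negative as a whole, since 71 of its 105 cells (67.6%, exact 95% binomial interval 57.8% to 76.4%, counting error only) had a value above 0.

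All cells were G1 cells of the female mouse line F1-21.6, a hybrid of 129Sv and Cast/EiJ. They were kept on laminin-511 in medium with serum and leukemia inhibitory factor (LIF), with no feeder cells and no treatment. Both groups thus share line and culture. Libraries were made from total RNA with RamDA-seq, which covers transcripts along their length and uses no molecular identifiers, and were sequenced in 5 lanes. No separate cultures are named, so the cells were treated as 1 sample of 1 line, no p-value was computed, and spreads given over lanes may be technical.

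Tbx3 is a T-box transcription factor that is known in mouse embryonic stem cells as a naive pluripotency factor downstream of LIF and PI3K signalling. It varies between cells grown in serum, together with other naive factors such as Nanog, Esrrb and Klf4, and its overexpression can push cells toward primitive endoderm. Naive cells resemble the inner cell mass of the blastocyst, and primed cells the later epiblast. Tbx3 RNA is alternatively spliced: an additional exon known as exon 2a lies inside the coding part of the T-box domain.

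The gene lies on mouse chromosome 5 (ENSMUSG00000018604, chr5:119670669-119684724, plus strand, mm10). Its 2 main transcripts in GENCODE vM21, ENSMUST00000018748 and ENSMUST00000121021, are 4856 and 4777 bases long. The first holds exon 2a at chr5:119675243-119675302, 60 bases or 20 codons, and the other joins the neighbouring exons directly. The sequences are shown because the balance of these transcripts differed between the groups. Capitals mark exon 2a, and 30 bases on each side are in lower case.
Tbx3 with exon 2a: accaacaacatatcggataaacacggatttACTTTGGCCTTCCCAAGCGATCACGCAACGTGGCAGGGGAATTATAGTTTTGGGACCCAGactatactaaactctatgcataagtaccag
Tbx3 without exon 2a: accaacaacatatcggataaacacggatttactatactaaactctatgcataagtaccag

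Tbx3 was spread over a wide range with no gap at either limit. In Tbx3-high cells the summed value had a lowest value of 178.8, a median of 225.1 and a highest value of 535.5 ppm. In Tbx3-low cells it had a lowest value of 0, a median of 2.19 and a highest value of 14.4 ppm. Over all cells the median was 94.1 and the mean 109 ± 100 (SD, n = 419 cells). The last cell inside the high group had 178.8 and the next cell outside it 177.5, and the last cell inside the low group had 14.39 against 14.47 for the next. Every lane held both groups, with 18 to 24 Tbx3-high cells and 18 to 26 Tbx3-low cells.

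The row with exon 2a made up a larger share of Tbx3 where Tbx3 was high. The exon 2a row took 51.8% of the summed Tbx3 value in Tbx3-high cells (43.6% to 61.7% across the 5 lanes) and 3.76% in Tbx3-low cells. The row without the exon took 45.3% and 88.0%. Counted by cell, the row with exon 2a was above 0 in 104 of 105 high cells but in 4 of 105 low cells, while the row without it was above 0 in 102 and 62 cells. By level, the exon 2a row took 2.38% of Tbx3 in the 36 cells with up to 5 ppm, 0% in the 20 cells from 5 to 10, 12.02% in the 19 cells from 10 to 15, and 23.4% in the 25 cells from 15 to 30. It took 34.9% in the 34 cells from 30 to 60, 46.9% in the 80 cells from 60 to 120, and 51.0% in the 171 cells above 120. The lowest steps rest on few cells: the exon 2a row was above 0 in 1 of the 36 cells, 5 of the 19 and 18 of the 25. Among those 5, the cells with 10.9 and 14.8 ppm of Tbx3 had only this row. The rule used the sum over rows and not their split, but the split comes from the same values, so it is given without a test. The sources used here do not say how reads common to both transcripts were assigned, and its part in the low share at low values was not tested.

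The alleles of Tbx3 were also looked at separately. All 105 Tbx3-high cells had a value from both alleles, whereas among Tbx3-low cells 40 had both, 18 only the 129 allele, 13 only the CAST allele and 34 neither; the rule used the sum of both alleles, so these counts are a description. The 129 allele took 55.0% of Tbx3 in high cells and 54.5% in low cells. Across the 419 cells the 129 and CAST values had a Spearman correlation of 0.74 and a Pearson correlation of 0.68, with Spearman values of 0.66 to 0.81 within lanes; the 2 values share the cell's library. When groups were drawn by the 129 allele alone, the CAST allele had a median of 91.0 ppm in the high and 1.08 in the low group, and when drawn by the CAST allele alone, the 129 allele had medians of 113 and 1.13. In 22 of the 40 low cells with both alleles, and in 15 of 105 high cells, the allele values lay within 10% of each other. Reads that carry no strain variant may be divided between the tables, and the sources used here do not say how.

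**Figure D1:**
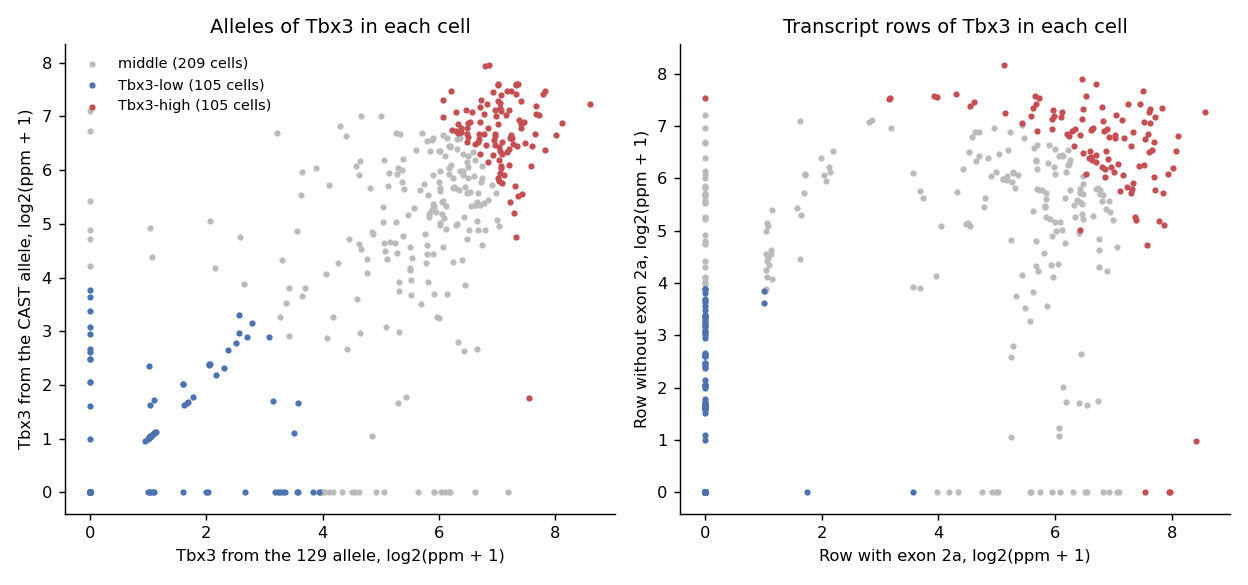
Each point is a cell. Left, Tbx3 from the 129 allele (x axis) and from the CAST allele (y axis); right, the Tbx3 row with exon 2a (x axis) and the row without it (y axis), all as log2(value ppm + 1). Red marks the 105 Tbx3-high, blue the 105 Tbx3-low and grey the 209 other cells; nearly all blue cells lie at 0 for the exon 2a row, where 4 of 105 had a value.

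The medians of the technical measures that the tables hold were close in the 2 groups. The median number of transcript rows above 0 was 29408 in Tbx3-high and 29130 in Tbx3-low cells, ribosomal RNA rows took a median of 15.5% and 15.8% of the total, and mitochondrial rows 4.80% and 4.63%. The stem cell markers Pou5f1 and Sox2 were above 0 in 105 and 105 high cells and in 105 and 97 low cells.

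Among 10683 other genes with a mean level of 5 ppm or more that were above 0 in at least 10% of cells, 416 (3.89%) were higher and 848 (7.94%) were lower in Tbx3-high cells. A gene was called when the ratio of the group means, with 1 ppm added to each, was 1.5-fold or more and had the same direction in all 5 lanes; log2 ratios below are on this scale, which understates differences of low genes. The median log2 ratio of all genes tested was 0.01. The genes lower in Tbx3-high cells reached more extreme ratios: 84 were lower by 4-fold or more and 10 were higher by 4-fold or more. Of the autosomal genes called, 376 of 384 higher (97.9%) and 802 of 805 lower (99.6%) had that direction in both allele tables. The calls were made on the sum of these tables, so this is a description and not a separate check. Among all 10262 autosomal genes tested, called or not, 7756 (75.6%) had the same sign in both tables. Genes on chromosome X have values in the CAST table only, although the line is named as female. The reason was not tested.

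**Figure D2:**
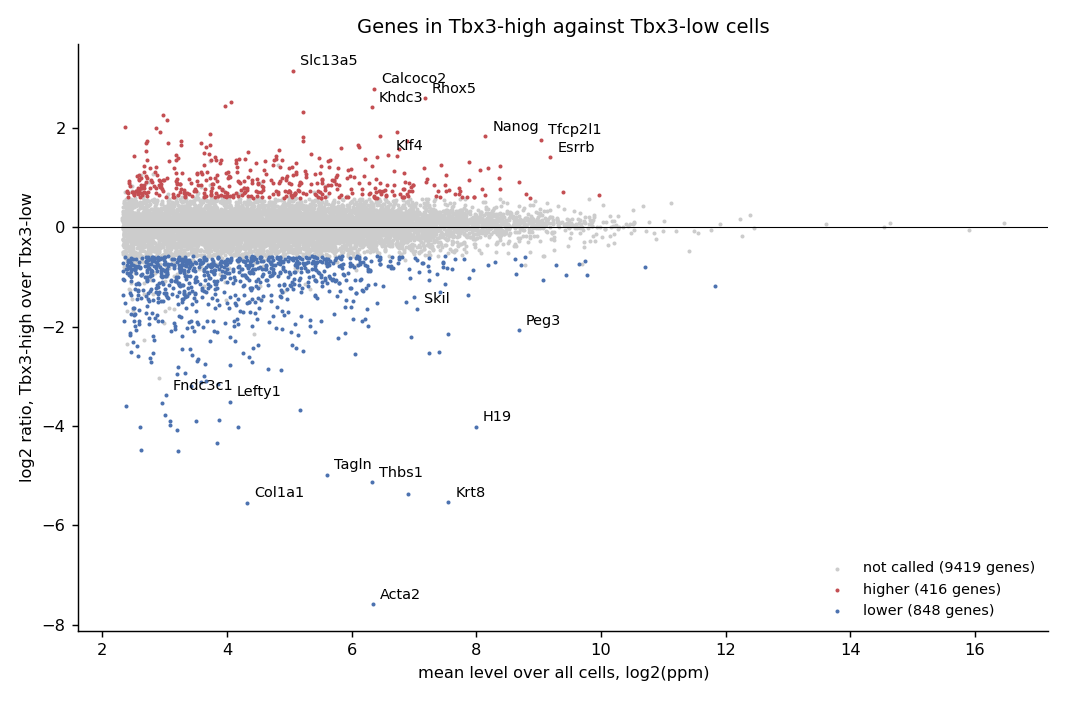
Each point is 1 of the 10683 genes tested, with its mean level over all 419 cells (x axis, log2 ppm) and its log2 ratio of Tbx3-high over Tbx3-low cells (y axis). Red points are the 416 genes called higher and blue points the 848 called lower; the lower side extends to -7.59 (Acta2) and the higher side to 3.15 (Slc13a5).

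Naive pluripotency genes were the list with most members called higher. Of 21 tested members 14 were higher and 1 was lower, with a median log2 ratio of 0.97. For this and all list counts below, the shares over all genes tested were 3.89% higher and 7.94% lower. Nanog, a homeobox factor of the naive network, had a lowest value of 15.2, a median of 436 and a highest value of 1046 ppm in Tbx3-high cells, and 0, 69.8 and 724 in Tbx3-low cells. Its log2 ratio was 1.82, between 1.35 and 2.25 in the lanes. The ranges overlapped, but 37 of 105 low cells lay below the lowest high cell and 6 reached the median of the high cells.

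Tfcp2l1, a transcription factor activated by STAT3, had 82.6, 709 and 2420 ppm (lowest, median, highest) in high cells and 0, 214 and 784 in low cells, a log2 ratio of 1.76 (lanes 1.53 to 2.34). Esrrb, an orphan nuclear receptor of the naive network, had 309, 784 and 1313 in high cells and 0, 234 and 1102 in low cells, a log2 ratio of 1.40 (lanes 1.03 to 2.01). Here 58 of 105 low cells lay below the lowest high cell. Klf4, a Krüppel-like factor induced by LIF, had 20.3, 127 and 472 in high cells and 0, 34.4 and 243 in low cells, a log2 ratio of 1.45.

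The remaining naive genes on the high side included Prdm14, a repressor of DNA methylation and differentiation genes (log2 ratio 1.69), the nuclear receptor Nr5a2 (1.43), threonine dehydrogenase Tdh (1.19), Zfp42, also known as Rex1 (1.15), the imprint-protecting zinc finger protein Zfp57 (1.04), Klf2 (0.68), Dppa5a (0.65) and Klf5 (0.60). Without the 20 cells highest in keratin and contractile genes, described below, 11 naive genes were called higher. Klf2 (0.51), Dppa5a (0.48) and Klf5 (0.56) were then under the 1.5-fold limit. Dppa5a shares 57.2% of its 31-base words with other transcripts, so its value is less certain. Pecam1, Tdgf1, Fgf4 and Sall1 were not called, with log2 ratios of 0.20 to 0.51, and Gbx2 was at -0.22. Dppa3, also known as Stella, was the member with the opposite direction: its mean was 9.70 ppm in high and 22.0 in low cells, a log2 ratio of -1.10.

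The core factors, which are also expressed in primed cells, differed less. Of 14 tested members 2 were higher, Sox2 (log2 ratio 0.68) and Mybl2 (0.71), and 1 was lower, the RNA-binding protein Lin28a (-0.70). Over all genes tested 3.89% were higher and 7.94% lower, and 1 lower gene of 14 is near that share. Without the 20 cells highest in keratin and contractile genes, Sox2 was at 0.48 and Mybl2 at 0.56, both under the 1.5-fold limit. Lin28a was then at -0.80. Pou5f1 (Oct4) had 123, 326 and 585 ppm (lowest, median, highest) in high cells and 2.03, 253 and 639 in low cells; its log2 ratio of 0.50 was below the 1.5-fold limit. For Pou5f1, 22 of 105 low cells lay below the lowest high cell, and for Sox2 28. Among naive genes this count was 5 for Zfp42, 20 for Tfcp2l1 and 58 for Esrrb, so it did not separate core from naive genes.

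Among genes tied to Tbx3 in earlier work on embryonic stem cells, 7 of 13 tested were higher and 2 lower. Besides Nanog, Esrrb, Zfp42 and Sox2, these were the DNA demethylation enzyme Tet2 (log2 ratio 1.22; medians 454 and 171 ppm), the AKT cofactor Tcl1 (1.12; medians 20.2 and 3.13) and the nuclear receptor Nr0b1, also known as Dax1 (0.97, CAST allele only). The cell cycle inhibitor Cdkn1a (-0.77) and E-cadherin, Cdh1 (-0.77), were lower. Without the 20 cells highest in keratin and contractile genes, they were at -0.42 and -0.58, under the 1.5-fold limit. Jarid2, a Polycomb cofactor, was at 0.09 and Dnmt3b at -0.23, neither called. The endoderm factors Gata6 and Gata4 were too low to be tested, with means of 0.534 and 1.14 ppm in high cells and 0.461 and 1.58 in low cells.

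The largest ratios on the high side belonged to genes outside the pluripotency lists. Slc13a5, a citrate transporter, had a median of 37.9 ppm in high cells and 0 in low cells, with a log2 ratio of 3.15 (lanes 2.08 to 4.55). Calcoco2, an autophagy receptor, had a median of 117 in high and 0 in low cells; it was above 0 in 104 of 105 high and 52 of 105 low cells, and its log2 ratio was 2.78 (lanes 2.50 to 3.10). Khdc3, a maternal-effect gene of the early embryo, had medians of 112 and 5.49 and a log2 ratio of 2.41, with 51 of 105 low cells below the lowest high cell. Calcoco2 and Khdc3 share 20.2% and 36.7% of their 31-base words with other transcripts. Between Calcoco2 and Khdc3 in size stood the X-linked homeobox gene Rhox5 (2.60, CAST allele only), the chloride channel Ano1 (2.52) and the water and glycerol channel Aqp3 (2.44).

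Further genes with high ratios were Sh2d4b (2.26), the prostaglandin synthases Ptgs1 (2.16) and Ptges (1.88), Itpka, an inositol trisphosphate kinase (2.02), Dio3, a thyroid hormone deiodinase (1.99), the actin nucleator Cobl (1.92), the sialyltransferase St8sia1 (1.90) and the junction protein Jam2 (1.83). St8sia1 was above 0 in 46 high and 24 low cells only, and Ptges ranged from 0.42 to 2.99 across lanes. Jam2 had medians of 119 and 30.7 ppm. Slc13a5, Ptgs1 and St8sia1 overlap an annotated gene on the other strand, and the sources used here do not say whether the counting used strand.

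The genes whose rank order over all 419 cells was most like that of Tbx3 were Calcoco2 and Tfcp2l1, each with a Spearman correlation of 0.67. Nfatc2ip followed at 0.66, then 2210409E12Rik and Nanog at 0.64, Cox5a, Zc3hav1 and Khdc3 at 0.62 to 0.63, and Usp48 and Aes at 0.60 to 0.61. All points share library and depth, and 2210409E12Rik shares 63.0% of its 31-base words with other transcripts. Cox5a, a subunit of cytochrome c oxidase, differed little in size but evenly: its log2 ratio was 0.72, between 0.61 and 0.83 in the lanes. At the opposite end stood Skil, a repressor of SMAD signalling also known as SnoN, at -0.60, then Pdlim7 (-0.54), Qser1 (-0.52), Esrp1 (-0.50), Adk and Afdn (-0.49), and Pcbp4, Impact, Fndc3c1 and Peg3 (-0.45).

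Mean levels of the called genes were also followed over the 4 quartile groups of Tbx3. They went up at every step for 313 of the 416 higher genes (75.2%) and down at every step for 658 of the 848 lower genes (77.6%). The outer quartile groups made the calls, so nothing is read from these shares. Means carried by few cells can be ordered in this way too, such as those of Acta2, at 301, 17.6, 3.59 and 0.573 ppm. Nanog means were 128, 214, 335 and 457 ppm from the lowest to the highest quartile. Calcoco2 means were 21.9, 37.7, 112 and 156. Skil means were 234, 133, 85.2 and 74.4, and Peg3 means 776, 375, 304 and 183.

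**Figure D3:**
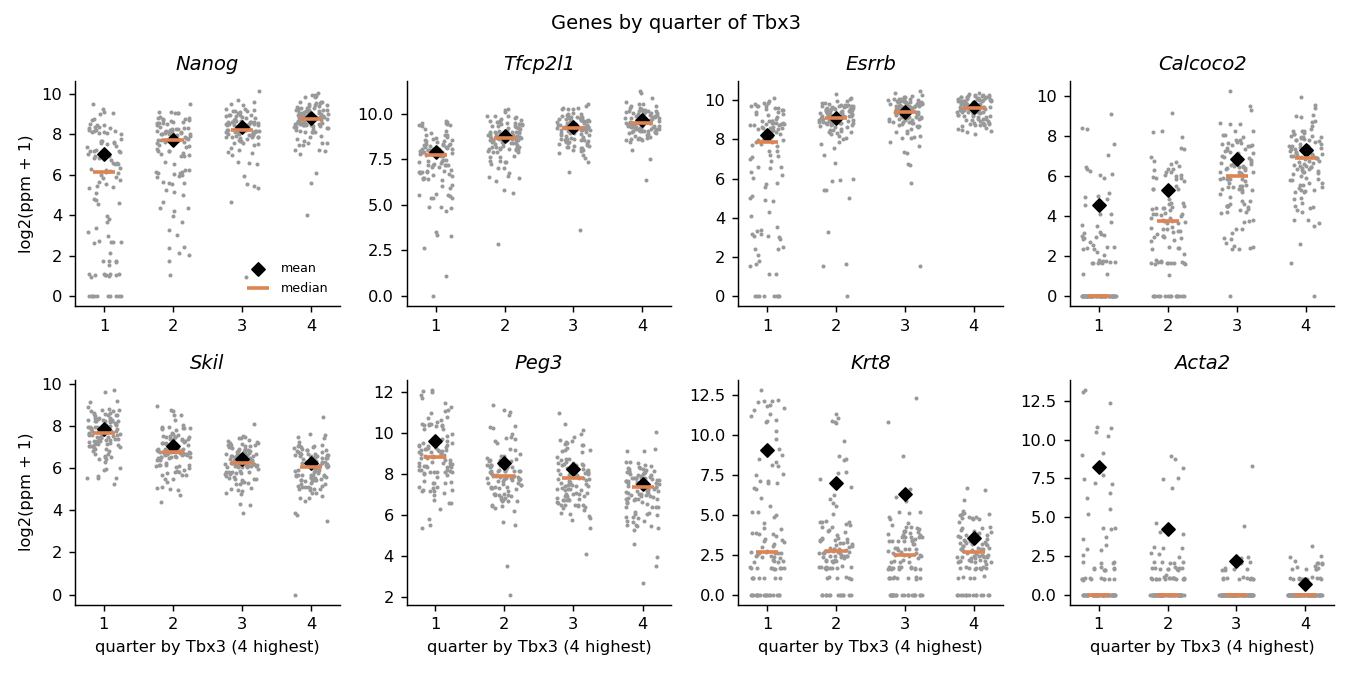
Levels of 8 genes, as log2(value ppm + 1), in the cells of each quartile by Tbx3 (grey points; 105, 105, 104 and 105 cells), with the mean (black diamond) and the median (orange bar). Medians of Nanog rose from 69.8 to 436 and medians of Skil fell from 200 to 66.2, while medians of Krt8 stayed at 4.49 to 5.56 and those of Acta2 at 0 although their means differed.

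On the low side, the most extreme ratios belonged to contractile and keratin genes. Of 20 tested members of the list of cytoskeletal genes and targets of serum response factor (SRF), 15 were lower in Tbx3-high cells and none was higher, with a median log2 ratio of -1.70. Smooth muscle actin Acta2 was at -7.59, the calponin-like protein Tagln at -4.98, the keratins Krt8 and Krt18 at -5.53 and -5.36, and the matrix protein Thbs1 at -5.13. Calponin Cnn1 (-3.59), the tropomyosins Tpm2 (-2.70) and Tpm1 (-2.51), and vinculin, Vcl (-1.51), were also lower. Cytoplasmic actin Actb (-0.18; 0.012 without the 20 keratin-rich cells) and Srf itself (-0.28) were not called.

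For Acta2 and Krt8 the ratio rested on a minority of Tbx3-low cells. Acta2 had a lowest value and a median of 0 in both groups, with a highest value of 7.73 ppm among high cells and 9475 among low cells, and 4 low cells held 74.0% of its sum over all 419 cells. Krt8 had medians of 5.41 in high and 5.35 in low cells, but 28 of 105 low cells lay above the highest high cell, at 103. Tagln, which overlaps Pcsk7 on the other strand and shares 62.2% of its 31-base words with other transcripts, was spread more widely: 78 of 105 low cells lay at or above the median of the high cells and 38 above the highest high cell. The log2 ratio of medians was -1.59 for Tagln and -1.78 for Thbs1. Of the 848 lower genes, 74 (8.73%) held 20% or more of their sum in 4 cells, against 1.24% of all genes tested and 3 of the 416 higher genes.

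The 20 cells with the highest sum of Acta2, Tagln, Thbs1, Krt8, Krt18 and Col1a1 included 14 Tbx3-low cells and no Tbx3-high cell. The summed naive genes of these 14 low cells had a lowest value of 93.5, a median of 342 and a highest value of 1543 ppm, against 500, 3227 and 6041 in the other 91 low cells and 3184, 5459 and 7731 in high cells. Without the 20 cells, 376 genes were higher and 495 lower, and 470 of the 848 lower genes were called again; the counts of lower genes in the cytoskeletal list went from 15 to 11 and its median from -1.70 to -0.90. Acta2 was then at -2.39, Krt8 at -2.67, Tagln at -3.67 and Col1a1 at -1.86. These genes were used to pick the cells, none of which was Tbx3-high, so their smaller ratios follow from the choice. Whether the shift of the cytoskeletal list goes beyond this choice was not tested. This choice of cells was made after their values were seen.

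Markers of other cell types were set beside these results. The summed trophectoderm markers Cdx2, Gata3, Elf5, Krt7 and Hand1 lay between 0 and 26.1 ppm in high cells and between 0 and 1082 in low cells, with medians of 3.25 and 5.58. Most of the sum in low cells was the keratin Krt7, with a mean of 37.7 ppm against 50.0 for the sum. Elf5 went the other way, with means of 0.813 in high and 0.396 in low cells. The summed fibroblast markers Col1a1, Col1a2, Col3a1, Thy1, Postn and Dcn lay between 0 and 71.9 in high cells and between 0 and 2931 in low cells, with medians of 5.84 and 6.29. Most of the sum in low cells was Col1a1, 1 of the genes that picked the 20 cells, with a mean of 72.9 ppm against 86.3 for the sum. Thy1 went the other way, with means of 4.82 in high and 4.45 in low cells. None of these markers was at 0 in all cells. Their part in the lower genes beyond the values without the 20 cells was not tested.

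Further strongly lower genes were Col1a1 (log2 ratio -5.54), skeletal actin Acta1 (-4.50), the protease Prss23 (-4.48), the macrophage growth factor Csf1 (-4.34), Tgfb2 (-4.09), Ccn4 (-4.03), Krt19 (-4.02), the receptor tyrosine kinase Axl (-3.99) and the interferon-induced GTPase Gbp2 (-3.90). In Prss23, Col1a1, Tgfb2, Axl and Acta1, 4 cells held 52.2% to 83.6% of the sum. In Gbp2 it was 31.8%, and Gbp2 was above 0 in 47 low and 9 high cells.

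Other lower genes were spread over most low cells. Skil had a lowest value of 0, a median of 66.2 and a highest value of 340 ppm in high cells, and 37.6, 200 and 840 in low cells; 97 of 105 low cells lay at or above the median of the high cells, and the log2 ratio was -1.64 (-1.37 in the lane nearest to 0). Pdlim7, a scaffold of actin fibres, had medians of 37.9 and 97.6 and a log2 ratio of -1.65, with 39 low cells above the highest high cell. Esrp1, an epithelial splicing regulator, had medians of 21.9 and 97.0 (-1.60), and adenosine kinase, Adk, medians of 15.0 and 38.6 (-1.36). Without the 20 cells Skil stayed at -1.64.

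Nodal and BMP pathway genes went in both directions. Of 19 tested, 4 were higher and 6 lower, with a median of -0.27, against 3.89% higher and 7.94% lower over all genes tested. Among ligands, Bmp4 (log2 ratio 1.38; medians 38.1 and 4.08 ppm) and the activin subunit Inhbb (1.47; medians 16.6 and 0) were higher, while Nodal itself was not called (-0.32). Inhibitors split: Smad6 (0.71) and Smad7 (0.67) were higher, and the Nodal antagonists Lefty1 (-3.51) and Lefty2 (-1.93) and Skil were lower. Lefty1 was above 0 in 17 high and 50 low cells with a median of 0 in both, and 4 low cells held 49.5% of its sum. The BMP target genes Id1 (-0.68), Id2 (-0.87) and Id3 (-0.73) were lower although Bmp4 was higher.

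In the LIF pathway the receptor parts and kinases were not called: Lifr was at 0.56, Il6st at -0.03, Jak1 at -0.06 and Stat3 at 0.31. Of 17 tested members, the 2 higher ones were the target factors Tfcp2l1 and Klf4. Gadd45g (-1.83), Junb (-0.70) and Sbno2 (-0.63) were lower. Socs3, the feedback inhibitor of the pathway, was at 0.47 and not called. In the PI3K and AKT list of 24, Tcl1, the X-linked RAS-like gene Eras (1.12) and Foxo3 (0.74) were higher. The kinases Akt1 (-0.72) and Pik3cb (-0.60) were lower. Of all genes tested, 3.89% were higher and 7.94% lower, and 2 lower genes of 24 are near that share. Without the 20 cells highest in keratin and contractile genes, Junb (-0.44), Akt1 (-0.55) and Pik3cb (-0.29) were under the 1.5-fold limit.

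Of 18 ERK feedback genes and targets, 5 were lower and none higher, against 7.94% lower and 3.89% higher over all genes tested. The lower ones were the receptor Fgfr2 (-1.48) and the phosphatases Dusp5 (-1.79), Dusp1 (-1.39), Dusp6 (-0.72) and Dusp4 (-0.61). Fgfr2 was lower across the group, with medians of 18.5 and 61.0 ppm. The Sprouty genes and Etv4 and Etv5 were not called, with Etv4 at 0.45. Immediate early genes had 4 of 10 lower, among them Jun (-1.25) and Klf6 (-1.61), and none higher.

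Formative and primed genes, which mark cells on the way to the epiblast, had 7 of 17 lower and 1 higher. The tight junction protein Cldn6 (-2.49; medians 6.76 and 30.1 ppm), the WNT effector Lef1 (-1.69), Sox4 (-1.47), Pou3f1, also known as Oct6 (-1.15), Grhl2 (-1.07), Sall2 (-0.80) and the methyltransferase Dnmt3a (-0.73) were lower. Foxd3 was higher (1.53). Otx2 (-0.27), Dnmt3b and Utf1 (0.47) were not called, and Fgf5 was too low to be tested. With the 20 cells left out, Dnmt3a was at -0.85 and Cldn6 at -1.98.

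Primitive endoderm genes did not share a direction. Of 9 tested members 2 were higher, laminin Lama1 (log2 ratio 1.31; medians 279 and 34.0 ppm) and Sox7 (0.98), and 2 were lower, the scavenger receptor Lrp2 (-2.53) and Sparc (-0.59). With 3.89% of all genes tested higher and 7.94% lower, nothing is read from counts of 2 among 9 genes. The median of the list was -0.57 with all cells and 0.52 without the 20 cells. Sparc was at -0.08 without them. Dab2 (0.40), Lamc1 (0.25), Lamb1 (-0.57), Col4a1 (-0.85) and Col4a2 (-1.24) were not called, and in the collagens 4 low cells held 20.3% and 22.1% of the sum. Col4a1 and Col4a2 changed direction without the 20 cells (0.74 and 0.52), with medians (0.98 and 0.50) and among cells between the quartiles of Nanog (1.99 and 2.30).

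Of 17 tested members of the list of imprinted genes, 8 were lower and none higher, with a median of -0.68. The noncoding RNA H19 was at -4.02 (medians 6.21 and 36.8 ppm), Igf2 at -3.20, Peg3, a zinc finger protein, at -2.08 (medians 163 and 449), and Nnat, Peg10, Sgce, Impact and Mest between -1.28 and -0.79. Peg3 was lower in most of the population, since 90 of 105 low cells lay at or above the median of the high cells. In H19, 4 cells held 41.2% of the sum, and Igf2 shares 63.1% of its 31-base words with other transcripts. The Meg3 (-0.29) and Rian (-0.24) RNAs of the Dlk1 region and Igf2r (0.10) were not called. Dio3, of the same imprinted region but not on this list, was higher (1.99).

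Epithelial and adhesion genes had 6 of 16 lower, among them the claudins Cldn7 (-1.94) and Cldn4 (-1.14), Epcam (-0.75) and Cdh1, and 2 higher, Cdh3 (0.67) and Zeb1 (1.21). Trophectoderm genes had 7 of 13 lower, of which 4 were keratins. Among germ cell genes the receptor Kit was higher (1.65; medians 89.1 and 12.5 ppm) and Prdm1 lower (-0.98). In the glycolysis list of 18 tested members 4 were lower and 1 higher, against 7.94% and 3.89% of all genes tested. The lower ones included the lactate exporter Slc16a3 (-2.03, medians 6.135 and 38.8) and Bnip3 (-1.04), neither of them a glycolytic enzyme. Pfkp was higher (0.62), and Pgam1 (0.19) was not called. Without the 20 keratin-rich cells Pfkp was at 0.49, under the 1.5-fold limit. Gapdh was at -0.12.

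None of 30 cytosolic ribosomal protein genes, 20 mitotic genes, 14 genes of the integrated stress response, 10 genes of the Myc family and 12 mitochondrially encoded mRNAs was called in either direction, with list medians of -0.02 to 0.18. Ratios above 0 were still held by 29 of the 30 ribosomal protein genes and 19 of the 20 mitotic genes. Of 24 genes of G1/S and replication 1 was called, cyclin D3, Ccnd3 (0.61). Without the 20 keratin-rich cells Ccnd3 was at 0.53, under the 1.5-fold limit. Myc was at 0.17 and Mycn at -0.14. Of all genes tested, 3.89% were called higher and 7.94% lower.

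**Figure D4:**
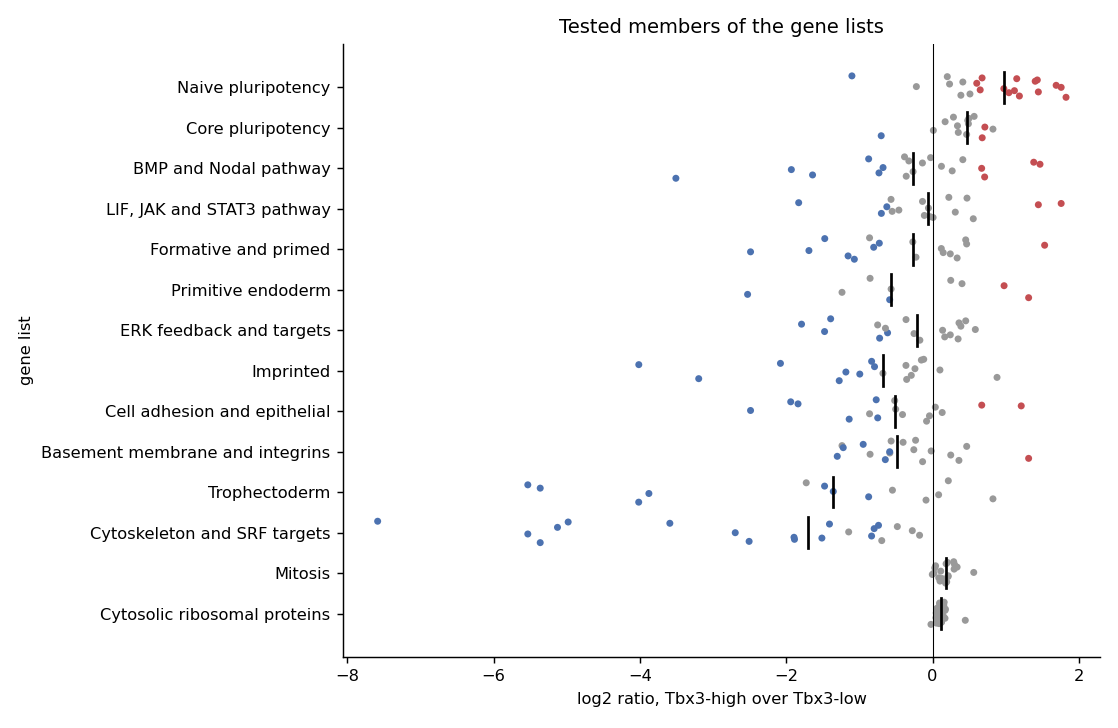
Log2 ratio of Tbx3-high over Tbx3-low cells (x axis) for the tested members of 14 gene lists (y axis). Each point is a gene, red where called higher, blue where called lower and grey otherwise, and the black bar is the list's median: 0.97 for naive pluripotency, -1.70 for the cytoskeletal list and 0.12 for ribosomal proteins.

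Tbx3 and Nanog were high in overlapping sets of cells. Of the 105 cells in the top quartile by Nanog, 59 were Tbx3-high and 7 Tbx3-low, and of the bottom quartile by Nanog, 3 were Tbx3-high and 61 Tbx3-low. For Tfcp2l1 the bottom quartile held 3 and 69, and for Esrrb 4 and 62. The comparison was therefore repeated among cells between the lower and upper quartile of Nanog, a choice made after the data were seen. It left 43 Tbx3-high and 37 Tbx3-low cells, whose Nanog means were 294 and 221 ppm. The lowest Nanog value among these 37 low cells was 106 ppm. This choice also left out the low cells richest in keratin. The low cells with the highest Krt8, at 7310, 4627 and 4524 ppm, had Nanog values of 0, 0 and 1.05. How far their loss moved the results below was not tested.

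Among these cells of intermediate Nanog, 369 genes were higher and 185 lower. Of the 416 genes called higher in all cells, 164 (39.4%) were called again, and of the 848 called lower, 125 (14.7%). The naive list went from 14 higher members to 5 and its median from 0.97 to 0.24, and the cytoskeletal list from 15 lower members to 2 and its median from -1.70 to 0.03. Of the 848 lower genes, 222 had a ratio above 0 here; Itga3 went from -1.30 to 1.07 and Krt18 from -5.36 to 0.53.

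Other genes stayed past 1.5-fold at intermediate Nanog, several of them with smaller ratios than in all cells. Slc13a5 was at 3.17, Calcoco2 at 2.28, Rhox5 at 2.19, Bmp4 at 1.17, Klf4 at 0.98 (1.45 in all cells) and Tfcp2l1 at 0.96 (1.76 in all cells). On the low side Lefty1 was at -2.66, H19 at -2.47 (-4.02 in all cells), Peg3 at -1.56, Skil at -1.38, Qser1 at -1.06 and Dnmt3a at -0.72. Esrrb (0.63), Tet2 (0.56) and Zfp42 (0.37) also had smaller ratios than in all cells, and Tcl1 was at -0.11.

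**Figure D5:**
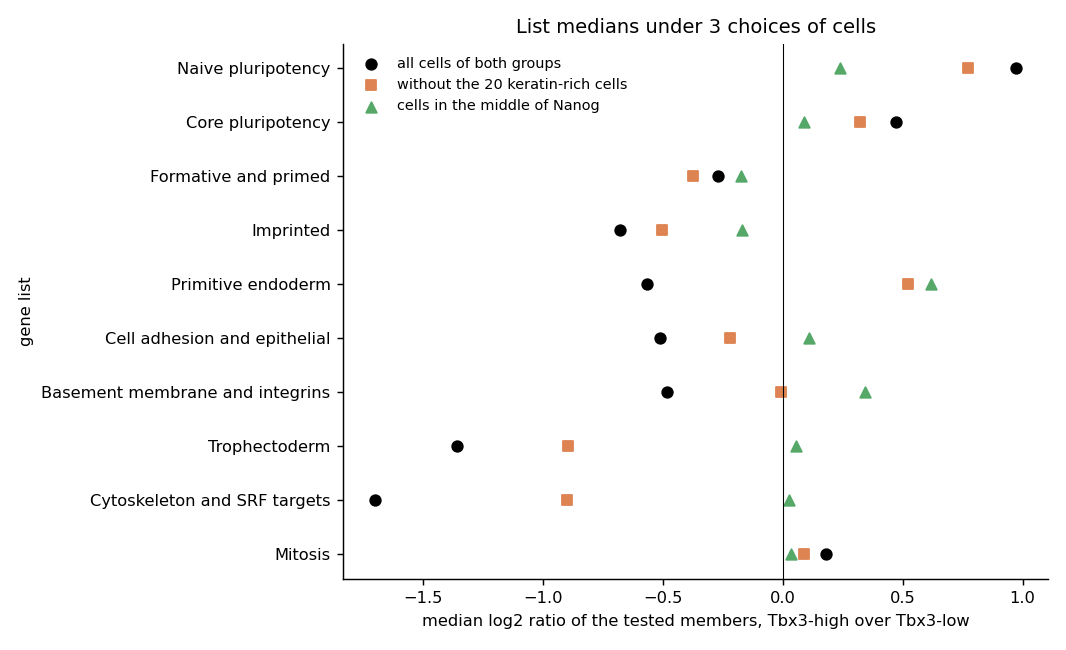
Median log2 ratio of the tested members (x axis) of 10 gene lists (y axis) with all cells of both groups (black circles), without the 20 cells highest in keratin and contractile genes (orange squares; 105 high and 91 low cells), and among cells between the quartiles of Nanog (green triangles; 43 high and 37 low cells). The cytoskeletal list moves from -1.70 to -0.90 and 0.03, the primitive endoderm list from -0.57 to 0.52 and 0.62, and the naive list from 0.97 to 0.77 and 0.24.

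The allele share of RNA values from part of chromosome 12 differed between the groups. Chromosome copies were not measured. On chromosome 12 beyond 80 Mb, where Esrrb, Tcl1 and Dio3 lie, many cells had a low 129 share. The share was under 35% in 78 of 105 Tbx3-high cells (74.3%, exact 95% binomial interval 64.8% to 82.3%), 56 of 105 Tbx3-low cells (53.3%, 43.3% to 63.1%) and 161 of 209 cells between them (77.0%, 70.7% to 82.6%). Among cells under 35%, 329 genes were higher and 343 lower, and among the 27 high and 49 low cells at 35% or more, 595 were higher and 1152 lower. Esrrb was at 0.95 and 2.12 in these classes, Dio3 at 2.15 and 1.07, Tcl1 at 0.58 and 2.15, and Nanog, on chromosome 6, at 1.60 and 2.15. The difference between the classes was not tested.

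Genes next to Tbx3 were looked at too. Of 45 annotated genes within 1 Mb, 10 could be tested and none was called, with log2 ratios from -0.54 (Slc8b1) to 0.29 (Rbm19). Of all genes tested, 3.89% were called higher and 7.94% lower. No call among 10 genes is near these shares, so nothing is read from it. The antisense and noncoding genes around Tbx3 had very low means that were larger in high cells. Tbx3os1 had 0.576 and 0.0917 ppm, Tbx3os2 0.455 and 0.0299, and Gm16063 0.977 and 0.00979. Tbx3os1 overlaps the first bases of Tbx3 on the other strand. Of the other T-box genes, Eomes (0.22), Mga (0.19) and Tbx20 (-0.28) were high enough to be tested and none was called. Nothing is read from so few genes either.

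Promoters of the called genes were searched for 3 letter patterns on both strands, in RefSeq windows of 300 bases (GRCm38.p6; 250 before and 50 after the start). A window was found for 310 of the 416 higher and 658 of the 848 lower genes, and for 8083 genes tested. The T-box letters GGTGTGA stood in 2.90% of the higher, 3.04% of the lower and 3.13% of all windows. The ESRRB letters TCAAGGTCA stood in 1, 3 and 17 windows. The STAT letters TTCCNGGAA, the palindrome that STAT3 is known to bind downstream of LIF, stood in 7 of 310 higher windows (2.26%), 2 of 658 lower windows (0.304%) and 101 of 8083 windows in all (1.25%). These counts are small and a match is not a binding site.

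The 7 matches in genes higher in Tbx3-high cells are shown because they are where this pattern and the comparison meet; they were picked after the search. Capitals mark the pattern, read on the gene's strand, with 10 bases on each side.
Mob3c: gacttcccacTTCCCGGAAaggctaaaga
2310043M15Rik: tccctcctcaTTCCGGGAAgagaattcct
Ada: gggttcagaaTTCCGGGAAatgcgcgcca
Cep128: agccagtttcTTCCGGGAAaggcaagtag
Tnip2: gcgggaaacgTTCCGGGAAggctggtttt
Nlrp12: gccttgcataTTCCTGGAAgaggccacat
Xlr5c: ggggtgtgagTTCCTGGAAgactgcttct
The Mob3c match lay at chr4:115827970-115827978 on the plus strand, 110 bases before the start, and the gene had means of 13.2 and 4.40 ppm in high and low cells (log2 ratio 1.40). Nlrp12 followed with a log2 ratio of 1.21 and a match at chr7:3249910-3249918 on the minus strand, and 2310043M15Rik with 1.10 and a match at chr16:93795056-93795064. Ada, adenosine deaminase, had means of 27.2 and 16.3 (0.71) and its match at chr2:163750321-163750329, 90 bases before the start. The remaining 3 genes had log2 ratios of 0.68 to 0.82.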

How the data were processed

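The data are RamDA-seq libraries of 419 single cells, deposited by the authors as 2 tables, 1 for each allele, with 117762 Ensembl transcript rows. The deposited values are a score: whole numbers that the authors scaled to nearly common totals, so they are not raw counts, read depth is unknown, and count models were not applied. Totals over both tables had medians of 921492 in Tbx3-high and 942651 in Tbx3-low cells. Per the submitters' processing notes, Bowtie 1.1.2 and mm10 were used, in roles not stated there. All columns matched a sample. Rows were joined to GENCODE vM21 (116919 matched; the others held 0.360% of all values) and summed per gene and cell, as parts per 1000000 (ppm) of the cell's total; Tbx3 itself was left out of the comparison.

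The members and gene lists were chosen with earlier results of these data known. Named genes were the 15 highest and 15 lowest ratios without predicted symbols, the 2 highest and 2 lowest measured members per list, all members of the naive, primitive endoderm and Tbx3-tied lists, the 10 highest and lowest rank correlations, and genes within 1 Mb of Tbx3; other genes named from the lists, and the genes with promoter matches, were picked after their values were seen. Shared 31-base words were counted between GENCODE transcripts of different genes. No cell was left out and no doublet caller was run. The comparison was checked on simulated data. There every cell of the high group shifted by the same fold, so genes carried by few cells were not covered. Alternatives covered lanes, pseudocount, filters, medians, allele tables, fold limits and subsets of cells. Python 3.11.15, numpy 2.4.6, pandas 2.3.3, scipy 1.17.1 and matplotlib 3.10.9 were used.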

Additional observations from a re-analysis of the deposited data

How the results depend on the processing

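Counts of genes higher and lower in Tbx3-high cells were 416 and 848. Leaving out each lane in turn gave 424 to 486 higher and 776 to 974 lower genes, 12 to 15 higher naive genes and 15 to 16 lower cytoskeletal genes. Filters and limits moved the counts as their construction implies: 662 and 1438 without a filter on low values, 226 and 375 at a mean of at least 20 ppm, 1371 and 1654 at 1.2-fold, 130 and 380 at 2-fold, and 97 and 452 against all other cells. Against the 34 cells at 0, an alternative chosen after seeing the data, 678 genes were higher. Lower genes numbered 437 with medians, 503 among cells between the quartiles of rows above 0, 343 among cells under 35% 129 on distal chromosome 12, and, in alternatives chosen after seeing the data, 495 without the 20 keratin-rich cells and 185 in the middle of Nanog. Lower cytoskeletal genes numbered 4 with medians, 8 among cells between the quartiles of rows above 0, 8 under 35% and 2 in the middle of Nanog, where 5 naive genes were higher. The cause of these moves was not tested.

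Among the named genes that were called, most changes of direction came in the middle of Nanog, with log2 ratios of 0.12 (Col1a1), 0.057 (Krt8), 0.53 (Krt18), 0.37 (Thbs1), 0.23 (Csf1), -0.11 (Tcl1), 0.061 (Cdh1), 0.011 (Junb), 0.15 (Dusp5), 0.32 (Sparc), 0.20 (Nes), 0.054 (Perp), 1.07 (Itga3), 0.17 (Jun), 0.059 (Klf6) and 0.62 (B2m). With medians Krt8 was at 0.015 and Tubb3 at 0.23, and under 35% on chromosome 12 Hsd17b7 was at 0.057. Named genes below the limit of a call could change sign too, such as Col4a1 and Col4a2. The bottom quartile was the main comparator, so the alternative naming it adds nothing. No paired analysis was possible because the cells form a single group. Unknown depth in reads limits what can be said of genes with few values above 0.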
